A study of Mus musculus with 8 samples.

Results

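The genes described are 8 immediate early genes and partners of the EGR and IER families: the transcription factors Egr1, Egr2 and Egr3, their co-repressors Nab1 and Nab2, and Ier2, Ier3 and Ier5. They were chosen by gene symbol from a list that uses no measured value but was written with earlier results of these data known, and all 8 were among the 22873 genes of the count tables. The transcripts were counted by single nucleus RNA-seq in mouse iris with a part of the adjoining ciliary body, in 34357 nuclei from 8 libraries. All libraries came from adult wild type (WT) female mice, which the authors describe as albino. Each was from a pool of 5 or 6 irises, and comparisons are between libraries. In the 2 dilated libraries the pupil had been held open by hourly eye drops of phenylephrine, an α1 adrenergic agonist, with cyclopentolate, a muscarinic antagonist, in mice kept in the dark. In the 3 constricted libraries it had been held closed by hourly drops of pilocarpine, a muscarinic agonist, in mice kept in the light. The other 3 libraries were from untreated mice, which received no drops. Drug, pupil size and lighting differed together and cannot be told apart, while hourly drops were given over several hours in both treated conditions.

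Immediate early genes are transcribed within minutes of a stimulus from factors that the resting cell already holds, and their transcripts are short-lived. Growth factors, stretch, calcium entry and neuronal activity reach them largely through the ERK kinases, which phosphorylate the partners of serum response factor, and through CREB. EGR1, EGR2 and EGR3 are zinc finger proteins that bind a GC-rich site, and NAB1 and NAB2 bind to them and recruit the NuRD chromatin complex, which represses transcription. NAB2 is itself known as an EGR1 target, so that EGR1 and NAB2 form a negative feedback loop. IER2 and IER5 are related nuclear proteins, and IER5 is known to act with the heat shock factor HSF1. IER3, also called IEX-1, modulates ERK signalling and cell survival.

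Each library held from 5189437 to 25136427 unique molecular identifiers (UMIs, 1 per captured transcript), and a nucleus had a library median of 2775 to 4697.5. The authors' cell type labels, 10 in all, were used, and UMIs were summed over the nuclei of a cell type in a library. Levels are given as counts per 1000000 of those summed UMIs (CPM). Fold changes of the tests were fitted with TMM scaling factors, which these levels do not carry, so they can differ in size from ratios of levels. Dilator muscle had from 1604121 to 10129055 UMIs per library, while the smallest sum of a library and cell type was 26113, so that rare transcripts could not be seen in the small cell types. The dilated replicate 1 library stood apart in its mitochondrial share, with a median of 0.0728% of a nucleus's UMIs against 0.0216% to 0.0438% in the other 7. It also shared 63 cell barcodes with untreated replicate 1, 59 of them under the same cell type label, where the next most similar pair of libraries shared 18. These 63 nuclei had a median of 5479 UMIs in untreated replicate 1 and 960 in dilated replicate 1. With every shared barcode left out, 400 nuclei in all, the same members were called in each comparison. The library numbers fell into 3 series, which are used below as the labels' only sign of batches: replicate 1 of every condition, constricted replicate 2 alone, and the remaining 4.

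The label of dilator muscle, where most of the changes below were found, was checked against 5 dilator markers (Adra1a, Nos1, Cit, Unc13c and Chrm2). Their summed level there was 3954 to 4439 CPM in untreated and 1908 to 2172 CPM in dilated libraries, and Nos1, Unc13c and Chrm2 were lower after dilation (adjusted p up to 0.0049, edgeR quasi-likelihood test). All 5 were detected in every condition. The summed level of 6 leukocyte markers in dilator muscle was 13.7 to 19.3 CPM in untreated and 7.6 to 14.6 CPM in dilated libraries, and that of 5 endothelial markers was 15.2 to 32.4 and 20.0 to 31.6 CPM. The 2 haemoglobin genes together were at 1.2 to 3.4 CPM in untreated and 7.6 to 8.6 CPM in dilated dilator muscle, and Hbb-bs was called higher (log2 2.29 ± 0.71, adjusted p 0.0492). Of the sphincter and smooth muscle markers, Ttn (log2 -1.03 ± 0.29, adjusted p 0.0337) and Mybpc1 (log2 -1.58 ± 0.30, adjusted p 0.00356) were lower and Tagln was higher (log2 1.83 ± 0.35, adjusted p 0.00384) in dilated dilator muscle. Their part in the results was not tested.

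Dilation raised 4 of the 8 genes in dilator muscle, the radial smooth muscle that opens the pupil: Egr1 by 50.1-fold, Ier2 by 23.5-fold, Nab2 by 4.06-fold and Ier5 by 1.97-fold over untreated libraries. Outside dilator muscle, Ier2 rose in the iris pigment epithelium (iris PE) and Egr1 in the cell type labelled ciliary body (CB). No member was called lower, and none was called in constricted against untreated libraries. The test was edgeR's quasi-likelihood test on summed counts, and a gene was called at an adjusted p under 0.05 over all genes tested in that cell type and an absolute log2 fold change above 0.6. Of the 80 pairs of gene and cell type, 29 had enough counts to be tested, in 8 cell types. Egr2 and Egr3 were tested in none, and no member was tested in leukocytes or endothelial cells. Of the 29 pairs, 6 were called in dilated against untreated libraries and 12 had an unadjusted p under 0.05. The share of all pairs with such an unadjusted p is not given, so the 12 are not read as a result about the members. In dilator muscle, where the share of all tested genes called higher was 7.2%, 4 of the 6 members tested were called. The median log2 fold change of these 6 was 1.5, against 0.015 over all genes tested there. In iris PE 1 of 6 members was called higher, against 0.453% of all genes, and in CB 1 of 2, against 0.0665%. The member called in CB, Egr1, had enough counts to be tested there only through its dilated libraries. In the other 5 cell types with a member tested no pair was called, where 1.5% of all pairs of gene and cell type were called in either direction.

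**Figure D1:**
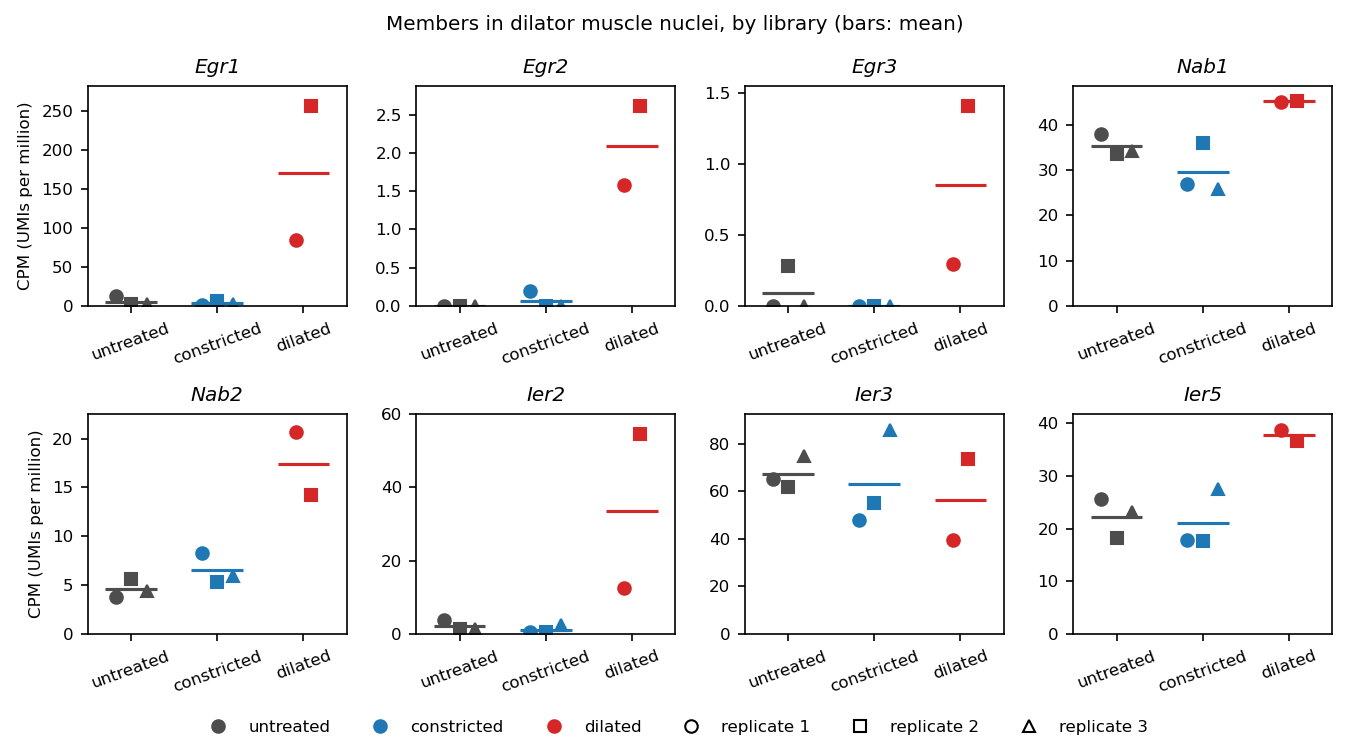
Level of each gene in dilator muscle (CPM, vertical axis from 0, with a scale of its own in each panel) in every library, grouped as untreated, constricted and dilated, with bars at the group mean. The 2 dilated points lie above the other 6 for all genes but Ier3.

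In dilator muscle Egr1 was at 12.5, 2.67 and 2.21 CPM in untreated replicates 1 to 3, at 1.94, 6.20 and 2.13 CPM in constricted replicates 1 to 3, and at 83.9 and 255 CPM in dilated replicates 1 and 2. Both dilated libraries lay far above the other 6, and they differed from each other by 3.04-fold. The log2 fold change over untreated libraries was 5.65 ± 0.60 (SE, adjusted p 9.83e-05), and that over constricted libraries was 6.05 ± 0.63 (adjusted p 9.81e-05). Within the library series of replicate 1 the ratio of dilated to untreated levels was 6.73, and within the series of the remaining libraries it was 104.4, so that the rise was found in both and differed much in size. Egr1 was called under all 15 alternative settings, with log2 fold changes of 4.49 to 6.29. The gene lies on mouse chromosome 18, at 34859823 to 34864984 of mm10 on the plus strand, and is a protein-coding gene of 5.16 kb.

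More dilator nuclei held an Egr1 transcript after dilation. An Egr1 UMI was found in 1.99%, 0.481% and 0.587% of dilator nuclei in untreated replicates 1 to 3 and in 0.496%, 0.937% and 0.374% in the constricted ones. In dilated replicate 1 it was found in 19.1% (95% Wilson interval 17.7% to 20.7%, 491 of 2567 nuclei) and in dilated replicate 2 in 52.1% (49.4% to 54.8%, 681 of 1306 nuclei). The intervals cover counting error only, and those of the 2 dilated libraries did not overlap. Free RNA can give UMIs in nuclei that do not express a gene, and stroma 1, a stromal cell type with little Egr1, had 1.19% and 2.15% of nuclei with a UMI in these 2 libraries, at median depths of 2815.5 and 2492 UMIs against 3800 and 3660 in dilator muscle. With every nucleus thinned to 1000 UMIs, which left out 2 and 1 of these dilator nuclei as too shallow, the shares were 6.82% and 21.9% in dilated libraries and at most 1% in the other 6. At least 3 Egr1 UMIs were found in 3.47% and 11.6% of dilator nuclei in the dilated libraries. In the other 6 libraries at most 0.496% of nuclei had 3 or more, and the highest count in any nucleus, 10 UMIs, was in untreated replicate 1.

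**Figure D2:**
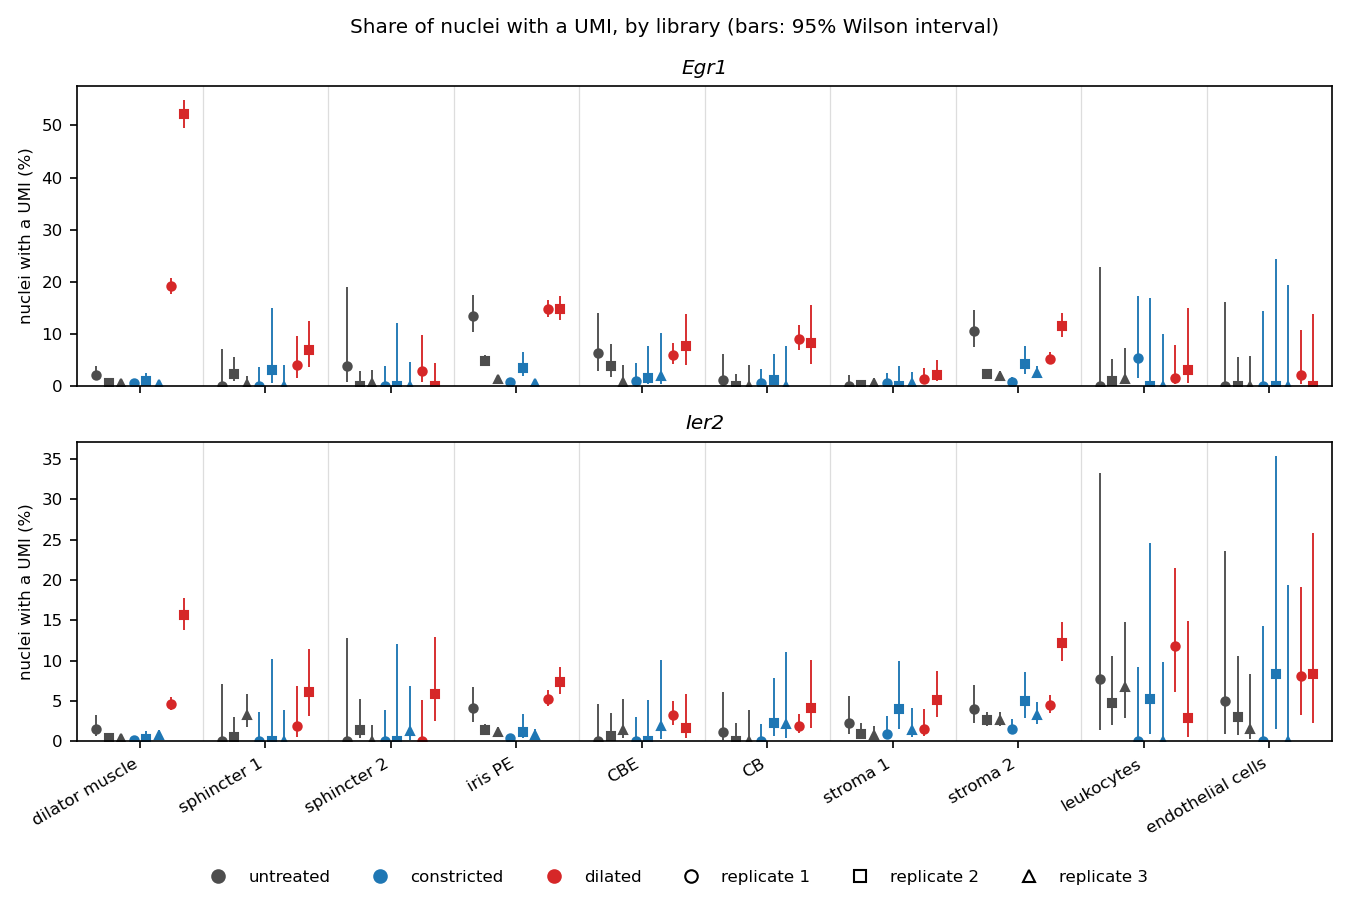
Share of nuclei (percent, vertical axis) with at least 1 UMI of Egr1 and of Ier2 by cell type and library, with 95% Wilson intervals that cover counting error only. Dilator muscle of the 2 dilated libraries stands highest for Egr1, at 19.1% and 52.1%.

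Because of this rise, dilator muscle went from holding 12.6% of all Egr1 UMIs in untreated libraries (53 of 420) and 23.1% in constricted libraries (33 of 143) to 67.6% in dilated libraries (2124 of 3143). Over the same libraries its share of all UMIs was 33.8%, 41.3% and 41.0%. In untreated irises Egr1 was highest elsewhere, in iris PE (27.4 ± 23.8 CPM, SD, n = 3) and stroma 2, the other stromal cell type (26.6 ± 26.2 CPM), followed by ciliary body epithelium (CBE, 10.4 ± 7.90 CPM), and dilator muscle was the fifth at 5.79 ± 5.79 CPM. The library ranges of every pair of neighbours in this order overlapped, so that the order is not resolved. Untreated replicate 1 was the highest of the 3 in iris PE (52.7 against 24.1 and 5.33 CPM) and in stroma 2 (56.8 against 10.3 and 12.7 CPM).

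In iris PE, Egr1 was at 75.0 and 76.4 CPM in the dilated libraries and at 2.96, 25.4 and 3.37 CPM in the constricted ones. Both dilated libraries were above the other 6. Yet in the main fit the call was not reached over untreated libraries (log2 1.79 ± 0.65, adjusted p 0.375) or over constricted ones (log2 3.30 ± 0.76, adjusted p 0.0812). Over constricted libraries it was called in 6 of 15 alternatives, among them the library series block (log2 4.65 ± 0.71, adjusted p 0.00705). Over untreated libraries it was called in 1 of 15, with no filter on low counts (log2 1.80 ± 0.38, adjusted p 0.00378). In CB, Egr1 was at 2.89, 0 and 0 CPM in untreated, 6.21, 8.56 and 0 CPM in constricted and 35.2 and 27.5 CPM in dilated libraries. The 2 dilated libraries again stood above the rest. The gene was called (log2 4.92 ± 0.92, adjusted p 0.0343), though it passed the filter on low counts only through these 2 libraries. These levels rest on 63 and 8 UMIs in dilated libraries and on 1 UMI in all untreated ones, and dilated replicate 1 gave 538 CB nuclei where the others gave 47 to 175. The call was lost without dilated replicate 2 (adjusted p 0.0622) and without untreated replicate 3 (adjusted p 0.162), and without 4 other libraries taken singly (untreated replicate 2, constricted replicates 1 and 2, and dilated replicate 1) the gene did not pass the filter on low counts. The 5 dilator markers summed to 605 to 838 CPM in CB of dilated and 895 to 913 CPM in CB of untreated libraries. In stroma 2, Egr1 was at 23.4 and 63.1 CPM in the dilated libraries, which overlapped the untreated range of 10.3 to 56.8 CPM (log2 1.04 ± 0.63, adjusted p 0.615). There the ratio of dilated to untreated levels was 0.413 in the first library series and 5.47 in the other.

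Egr2 and Egr3 were rare, with 51 and 28 UMIs in the whole data set, in 4 and 3 cell types. Egr2 is best known from Schwann cells and hindbrain, and Egr3 from neurons and muscle spindles. Egr2 had no UMI in dilator muscle of untreated libraries, 1 in constricted replicate 1, and 16 and 13 in dilated replicates 1 and 2 (1.58 and 2.60 CPM). Against the limit that a count of 0 allows in the pooled untreated libraries, 3 UMIs, the pooled level of the dilated libraries was at least 9.61-fold higher. Egr2 did not pass the filter on low counts. With that filter dropped it was called against untreated libraries (adjusted p 0.00108) and against constricted libraries (log2 4.41 ± 1.06, adjusted p 0.00785). Both calls rest on UMIs found almost only in the dilated libraries, and they are given as descriptions. Egr3 had 3 and 7 UMIs in dilated dilator muscle, 2 in that of untreated replicate 2 and none in the other 5 libraries, and this difference was too small to test. In untreated irises Egr3 was found in stroma 2, with 1, 1 and 3 UMIs, and in dilator muscle, with 2, and its libraries' ranges in these 2 cell types did not overlap (0.313 to 1.21 against 0 to 0.281 CPM). Egr2 lies on chromosome 10 at 67535475 to 67542188 and Egr3 on chromosome 14 at 70077203 to 70082614, both on the plus strand.

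The reference promoter table held windows for 5 of the 8 genes, and the 250 bases before each start were searched on both strands for an EGR site (GCGNGGGCG) and for the serum response element, the site of serum response factor. The element was found at 2 places in the Egr2 windows, one of them shared by 3 overlapping windows, and 1.47% of the 32851 windows of all genes held it. A window that overlapped no exon, before a start inside the annotated gene, is shown because Egr2 had no UMI in untreated dilator muscle and 29 in the dilated one, and the element is in capitals (RefSeq, GRCm38.p6, plus strand).
Egr2, chr10:67537619-67537868: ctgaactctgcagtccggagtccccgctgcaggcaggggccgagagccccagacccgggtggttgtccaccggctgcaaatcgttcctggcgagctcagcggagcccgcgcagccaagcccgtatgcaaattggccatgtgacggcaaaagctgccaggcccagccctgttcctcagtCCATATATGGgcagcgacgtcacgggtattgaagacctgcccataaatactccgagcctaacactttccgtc
The element began 72 bases and ended 63 bases before the start. Another Egr2 window, on the same chromosome from 67537316 to 67537565, held it as CCTTTTTTGG at the same distance. No EGR site was found in the Egr2 windows. These matches are descriptions of the letters only.

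Of the co-repressors, Nab2 was called higher in dilator muscle over untreated libraries and Nab1 was not. Their changes were not tested against each other. Nab2 was at 3.74, 5.63 and 4.43 CPM in dilator muscle of untreated, 8.32, 5.32 and 5.92 CPM in constricted and 20.6 and 14.2 CPM in dilated libraries. Both dilated libraries were above the other 6. The log2 fold change was 2.02 ± 0.28 over untreated (adjusted p 0.000563) and 1.55 ± 0.28 over constricted libraries (adjusted p 0.00302), and it was called under all 15 alternative settings. The ratio of dilated to untreated levels was 5.52 within the first library series and 2.83 within the other, where Egr1 and Ier2 had their larger ratio in the other. Nab2 lies on chromosome 10 at 127660918 to 127668568 on the minus strand and overlaps Nemp1 by 1668 bp, Gm16229 by 1646 bp and Stat6 by 40 bp, all on the plus strand. Whether the counting used strand is not given in the sources used here. In dilator muscle Nemp1 was lower after dilation (log2 -0.79 ± 0.21, adjusted p 0.0269) and Stat6 had a log2 fold change of 0.29 ± 0.16 (adjusted p 0.251).

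Nab1 in dilator muscle was at 38, 33.6 and 34.3 CPM in untreated, 26.9, 35.9 and 25.8 CPM in constricted and 45.1 and 45.3 CPM in dilated libraries. The 2 dilated libraries were the highest of the 8. Over untreated libraries the log2 fold change of 0.55 ± 0.17 did not pass (adjusted p 0.0522), and it passed over constricted libraries (log2 0.81 ± 0.18, adjusted p 0.0106), where the call was lost without dilated replicate 2 (0.73 ± 0.22, adjusted p 0.081). In the other 7 cell types in which it was tested, its log2 fold change over untreated libraries was between -0.49 and 0.22, with no call. Nab1 had the smallest ratio of the highest to the lowest untreated cell type among the 8 genes, and its means ran from 28.5 ± 9.69 CPM in CBE to 70.9 ± 7.87 CPM in sphincter 1, one of the 2 sphincter muscle cell types. Nab2 was highest in untreated stroma 2 (18.7 ± 2.93 CPM), where it was not called after dilation (log2 0.32 ± 0.25, adjusted p 0.748). Its untreated library range there overlapped that of leukocytes, the next cell type, which held 2 UMIs.

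The Nab1 promoter window, of the minus strand, held 3 EGR sites, and 4.7% of all windows held at least 1. They are shown with 10 bases on either side, read along the gene, because NAB1 represses the factors that bind this site. The site is in capitals (RefSeq, GRCm38.p6).
Nab1, chr1:52500571-52500599: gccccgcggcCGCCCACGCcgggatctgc
Nab1, chr1:52500539-52500567: actcggccgcGCGTGGGCGggagccggag
Nab1, chr1:52500468-52500496: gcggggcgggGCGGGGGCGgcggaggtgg
The first of these matches on the opposite strand. They began 141, 109 and 38 bases before the RefSeq start, and the window overlaps an annotated exon of Nab1 itself. The table's window of Nab2 lies inside the gene as annotated, not before its outermost start, and overlaps 2 exons. It held no EGR site and no serum response element, and neither did the windows of Ier3 and Ier5. No match says only that these letters are not in this window.

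Ier2 in dilator muscle was at 3.74, 1.27 and 1.27 CPM in untreated, 0.581, 0.443 and 2.37 CPM in constricted and 12.5 and 54.5 CPM in dilated libraries. Both dilated libraries were above all others, with dilated replicate 2 4.35-fold higher than replicate 1. The log2 fold change was 4.56 ± 0.68 over untreated (adjusted p 0.000845) and 4.97 ± 0.72 over constricted libraries (adjusted p 0.000867). A UMI of Ier2 was found in 4.67% and 15.7% of dilated dilator nuclei and in at most 1.49% of those of any other library. Within the library series the ratio of dilated to untreated levels was 3.35 and 43.0. Egr1 and Ier2 thus shared their order of libraries, dilated replicate 2 over replicate 1, whereas Nab2 had the opposite one. Ier2 is a short gene on chromosome 8 at 84661331 to 84662852, on the minus strand.

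In iris PE, Ier2 was at 12.5, 7.36 and 3.91 CPM in untreated, 1.31, 2.46 and 2.62 CPM in constricted and 19.8 and 31.2 CPM in dilated libraries. The 3 conditions did not overlap. Dilated libraries were called higher than untreated ones (log2 1.92 ± 0.38, adjusted p 0.0427) and than constricted ones (log2 3.64 ± 0.48, adjusted p 0.00386), and the constricted libraries were not called lower than the untreated ones (log2 -1.72 ± 0.52, unadjusted p 0.00599, adjusted p 0.911). The call over untreated libraries was lost without TMM factors (adjusted p 0.0521) and on leaving out each of 5 libraries singly: dilated replicates 1 and 2 (adjusted p 0.0518 and 0.343), untreated replicates 2 and 3 (0.204 and 0.26) and constricted replicate 2 (0.0822). In stroma 2, Ier2 was at 14.5, 11.6 and 11.3 CPM in untreated and 16.7 and 54.9 CPM in dilated libraries, with dilated replicate 2 standing alone (log2 1.55 ± 0.47, adjusted p 0.155, and 1.87 ± 0.34, adjusted p 0.0109, with the library series as a block). The 5 endothelial markers summed to 632 to 811 CPM in stroma 2 of dilated libraries against 195 to 256 CPM in untreated ones, and the part of this in the stroma 2 values was not tested. Among untreated cell types Ier2 was highest in leukocytes (27.7 ± 7.63 CPM) and low in dilator muscle (2.09 ± 1.43 CPM). The leukocyte level rests on 11 UMIs, and its library range overlapped that of the next cell type, endothelial cells.

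Ier5 in dilator muscle was at 25.6, 18.2 and 23.1 CPM in untreated, 17.8, 17.7 and 27.5 CPM in constricted and 38.8 and 36.7 CPM in dilated libraries. The dilated libraries were close to each other and above the other 6. The rise was under 2-fold (log2 0.98 ± 0.22 over untreated, adjusted p 0.0104, and 1.00 ± 0.22 over constricted libraries, adjusted p 0.0107). The call over untreated libraries was lost without dilated replicate 2 (adjusted p 0.0585) and without untreated replicate 2 (adjusted p 0.0669), at log2 fold changes of 0.94 and 0.85, and that over constricted libraries without dilated replicate 2 (adjusted p 0.0623). Within the library series the ratio of dilated to untreated levels was 1.52 and 1.78. In iris PE Ier5 did not differ between dilated and untreated libraries beyond their spread (log2 0.02 ± 0.37). Untreated leukocytes had the highest level (49.1 ± 15 CPM), followed by endothelial cells (32.5 ± 11.4 CPM) and dilator muscle (22.3 ± 3.77 CPM). The levels of leukocytes and endothelial cells rest on 19 and 14 UMIs. Library ranges of neighbours in this order overlapped, so that the order is not resolved.

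Ier3 was the exception in dilator muscle. It was at 65.5, 61.9 and 75.0 CPM in untreated, 48.0, 55.0 and 86.0 CPM in constricted and 39.4 and 73.5 CPM in dilated libraries, so that all 3 conditions overlapped. Its log2 fold change over untreated libraries was -0.07 ± 0.30 (adjusted p 0.917), and its sign turned in some alternatives. Dilator muscle was the cell type with the most Ier3 before any treatment (67.5 ± 6.75 CPM), with library ranges apart from those of the next, sphincter 2 (47.8 ± 9.80 CPM). In iris PE, Ier3 was at 35.9, 42.4 and 44.2 CPM in untreated, 15.1, 16.4 and 34.0 CPM in constricted and 66.4 and 52.1 CPM in dilated libraries. Here the 3 conditions lay apart, and dilated libraries were called higher than constricted ones (log2 1.44 ± 0.28, adjusted p 0.037) but not than untreated ones (log2 0.55 ± 0.26, adjusted p 0.577). This call was lost on leaving out each of 6 libraries singly: untreated replicates 2 and 3 (adjusted p 0.0593 and 0.0553), constricted replicates 1 and 2 (0.105 and 0.164) and dilated replicates 1 and 2 (0.271 and 0.106). In CBE and stroma 2, Ier3 reached 123 and 110 CPM in dilated replicate 2 and 40.8 and 37.7 CPM in dilated replicate 1, without a call (adjusted p 0.686 and 0.264). With the library series as a block both were called over untreated libraries, at log2 1.69 ± 0.32 in CBE (adjusted p 0.0218) and 1.40 ± 0.25 in stroma 2 (adjusted p 0.0108). Ier3 lies on chromosome 17 at 35821684 to 35822923, on the plus strand, and Ier5 on chromosome 1 at 155096361 to 155099636, on the minus strand.

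The sphincter muscles close the pupil and relax when it dilates. In sphincter 1, Egr1 was at 10.9 and 32.3 CPM in dilated, 0, 7.97 and 0.903 CPM in untreated and 0, 6.05 and 0 CPM in constricted libraries. The 2 dilated libraries were the highest, but the counts were too low for the filter, and with the filter dropped Egr1 was called over untreated libraries (log2 2.71 ± 0.74, adjusted p 0.0288). In sphincter 2, Egr1 was at 11.1 and 0 CPM in dilated libraries, within the untreated range of 0 to 18.3 CPM. Ier3 in sphincter 2 was at 59.3 and 88.6 CPM in dilated and at 36.6, 52 and 54.9 CPM in untreated libraries, and Nab1 in sphincter 1 at 57.3 and 43.8 CPM in dilated and 64.5, 79.7 and 68.6 CPM in untreated ones. The groups lay apart in both cases, upward for Ier3 (log2 0.61 ± 0.37, adjusted p 0.515) and downward for Nab1 (log2 -0.49 ± 0.36, adjusted p 0.726), and neither was called.

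In CBE, the secretory epithelium of the ciliary body, Egr1 was at 22.5 and 44.3 CPM in dilated, 17.8, 11.3 and 2.08 CPM in untreated and 2.32, 2.53 and 6.11 CPM in constricted libraries, and it was too rare for the filter. In leukocytes Ier3 was at 144 and 39.6 CPM in dilated and 33.1, 18.9 and 24.8 CPM in untreated libraries, but one constricted library reached 62.6 CPM. In endothelial cells Ier2 was at 28.4 and 41.2 CPM in dilated libraries and at 19.4, 12.7 and 5.75 CPM in untreated ones, with 26.7 CPM in constricted replicate 2. These small cell types gave few UMIs, and their levels are given without a test of condition. In stroma 1, Ier2 was at 5.57 and 25.0 CPM in dilated libraries, of which only replicate 2 was above the untreated range of 3.66 to 7.17 CPM.

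**Figure D3:**
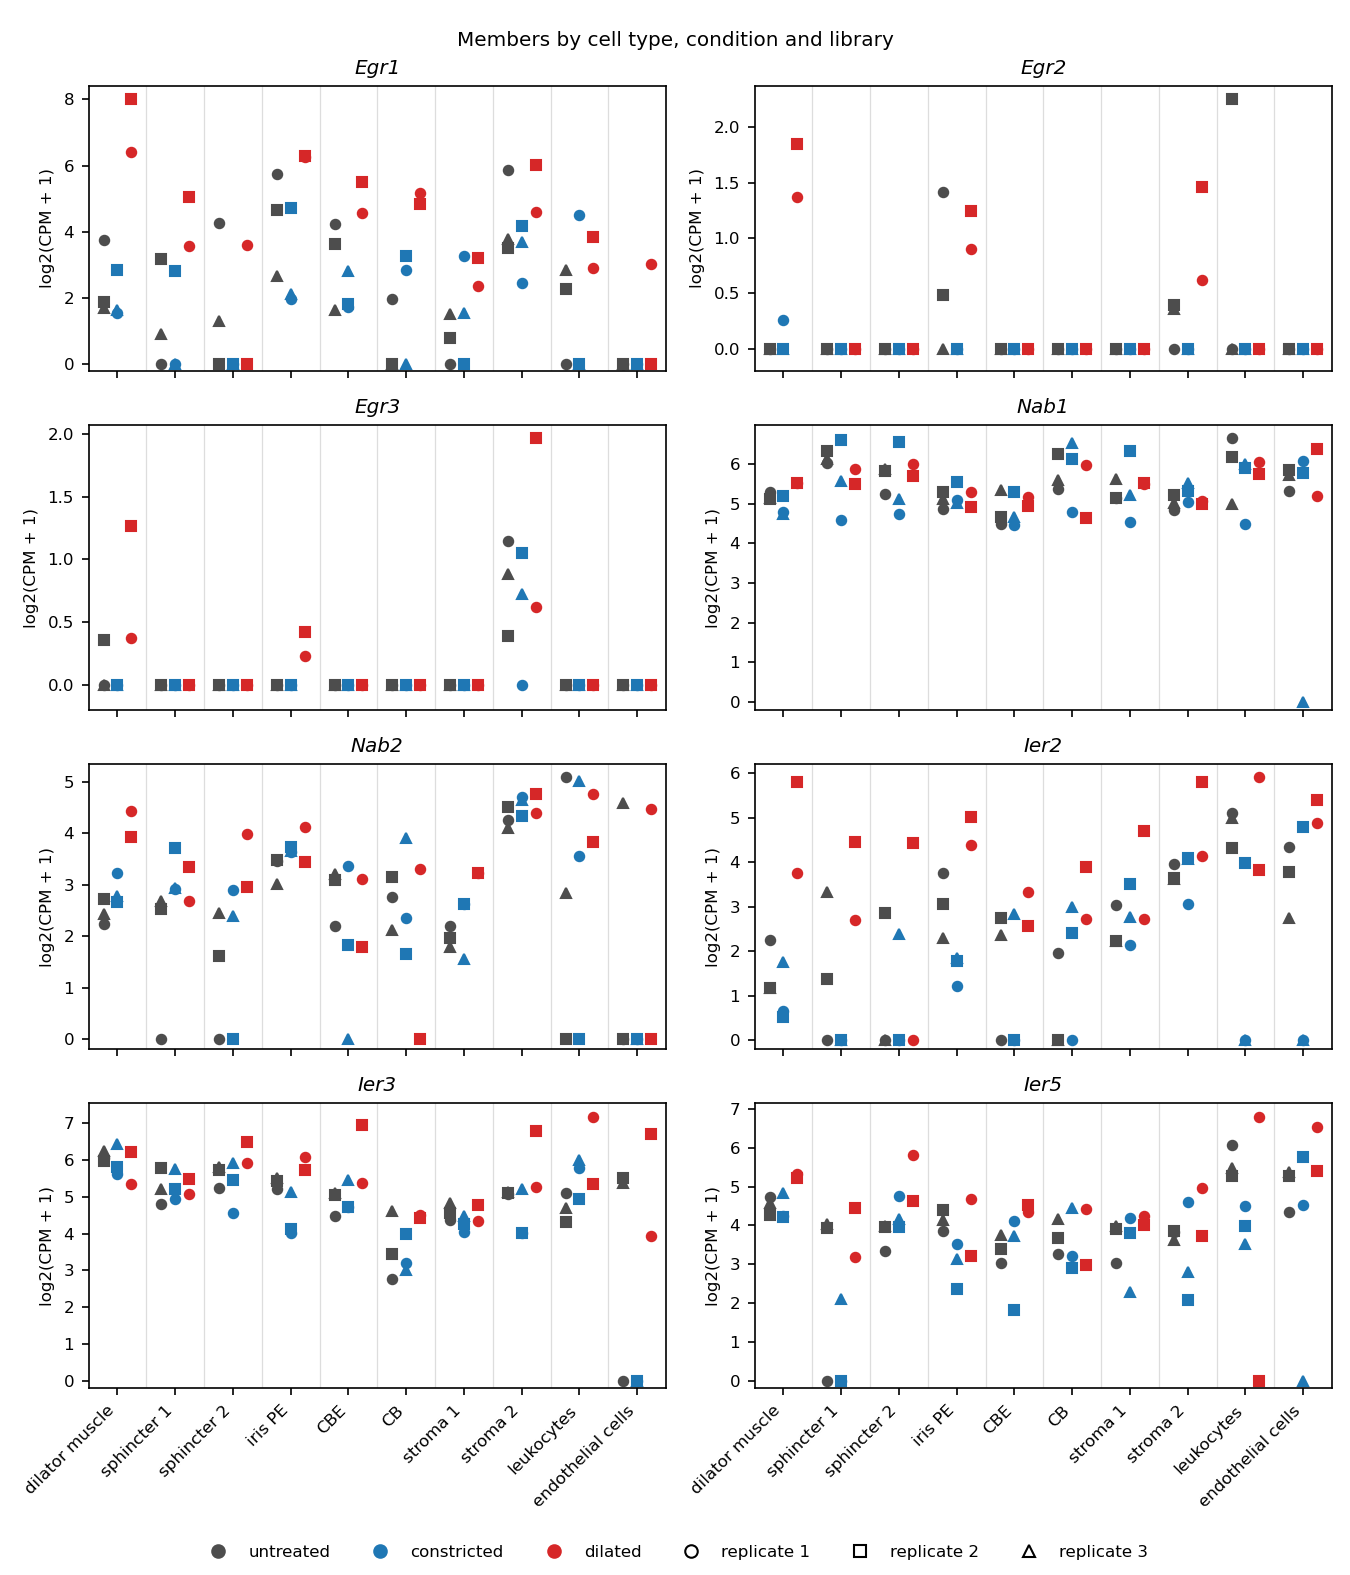
Level of each gene, as log2(CPM + 1), in every library of the 10 cell types, with colours for untreated, constricted and dilated libraries. The dilated points of Egr1 and Ier2 in dilator muscle stand apart, and those of Ier3 do so in iris PE and not in dilator muscle.

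Constriction had no called effect on any of the genes. Of the 29 pairs tested, none was called in constricted against untreated libraries by edgeR or by DESeq2. The smallest adjusted p by edgeR was 0.911, and 3 pairs had an unadjusted p under 0.05. The share of all pairs of gene and cell type called in these 8 cell types was 0.0124%. Of all 80713 such pairs, 4155 had an unadjusted p under 0.05. The 3 pairs of members were Ier2, Ier3 and Ier5 in iris PE, with log2 fold changes of -1.72 ± 0.52, -0.89 ± 0.27 and -1.09 ± 0.39. All 3 were lower in every constricted library than in any untreated one. How many of all pairs had this order was not counted, so it is not read as a result about the members. Against constricted libraries the dilated ones gave 7 called pairs of 29, with 15 at an unadjusted p under 0.05, for which the share of all pairs is not given. The 7 called were Egr1, Ier2, Nab2, Ier5 and Nab1 in dilator muscle, where 5.59% of all genes were called higher, and Ier2 and Ier3 in iris PE, where 0.411% were. Both comparisons share the dilated libraries.

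In dilator muscle the levels in both dilated libraries were above those in all other 6 for 5 of the 6 genes tested, and also for Egr2 and Egr3, which were not tested. Of all genes tested there, 8.81% had this order. The share was read on levels and not from a test.

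Whether the dilation effect in dilator muscle differed from that in another cell type was tested in joint fits of both, with a term for each library. Of 54 such differences, 16 were called (adjusted p under 0.05 over all genes in the fit, and a difference above 0.6 on the log2 scale). For 10 of the 16 the gene also had enough counts to be tested in the other cell type by itself, and these are described first. Egr1 rose more in dilator muscle than in stroma 2 (difference 4.27 ± 0.26, adjusted p 1.46e-07) and iris PE (3.42 ± 0.45, adjusted p 1.03e-05). The difference from CB was not called and was imprecise (-0.70 ± 1.33, adjusted p 0.913). Ier2 rose more in dilator muscle than in iris PE (2.28 ± 0.50) and stroma 2 (2.86 ± 0.40). Nab2 rose more than in iris PE (1.33 ± 0.28) and stroma 2 (1.75 ± 0.31). For Nab1 the difference from sphincter 1 was 1.06 ± 0.31, with its change over untreated libraries called neither in dilator muscle (0.55 ± 0.17) nor in sphincter 1 (-0.49 ± 0.36). Ier3 went the other way: its dilation effect in dilator muscle was lower than in stroma 2 (-1.15 ± 0.19), CBE (-1.38 ± 0.30) and iris PE (-0.79 ± 0.23). The calls of Nab1 for sphincter 1 and of Ier3 for iris PE were lost without untreated replicate 2 and without untreated replicate 3. That of Ier2 for iris PE was lost without untreated replicate 2, and that of Nab1 also without TMM factors. Without dilated replicate 1 the calls of Nab2 for stroma 2 and of Ier3 for iris PE were not kept. Without dilated replicate 2 that of Nab1 for sphincter 1 was not kept. In the other 6 the gene had too few counts to be tested in the other cell type by itself, and their values are given without being read as differences between cell types. They were Egr1 for CBE (3.27 ± 0.63) and sphincter 1 (3.06 ± 0.92), Ier2 for sphincter 1 (3.26 ± 0.83), stroma 1 (2.69 ± 0.66) and leukocytes (3.29 ± 0.90), and Ier3 for leukocytes (-2.55 ± 0.62, from 25 dilated and 10 untreated UMIs). Ier5 gave no call, with differences from -0.56 ± 0.51 for sphincter 2 to 0.92 ± 0.31 for iris PE (adjusted p 0.0584). The share of all genes with such a difference was 7.56% for stroma 2, 8.81% for iris PE, 4.18% for CBE, 6.67% for sphincter 1, 2.04% for sphincter 2, 3.06% for CB, 5.5% for stroma 1, 0.746% for leukocytes and 0.528% for endothelial cells.

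**Figure D4:**
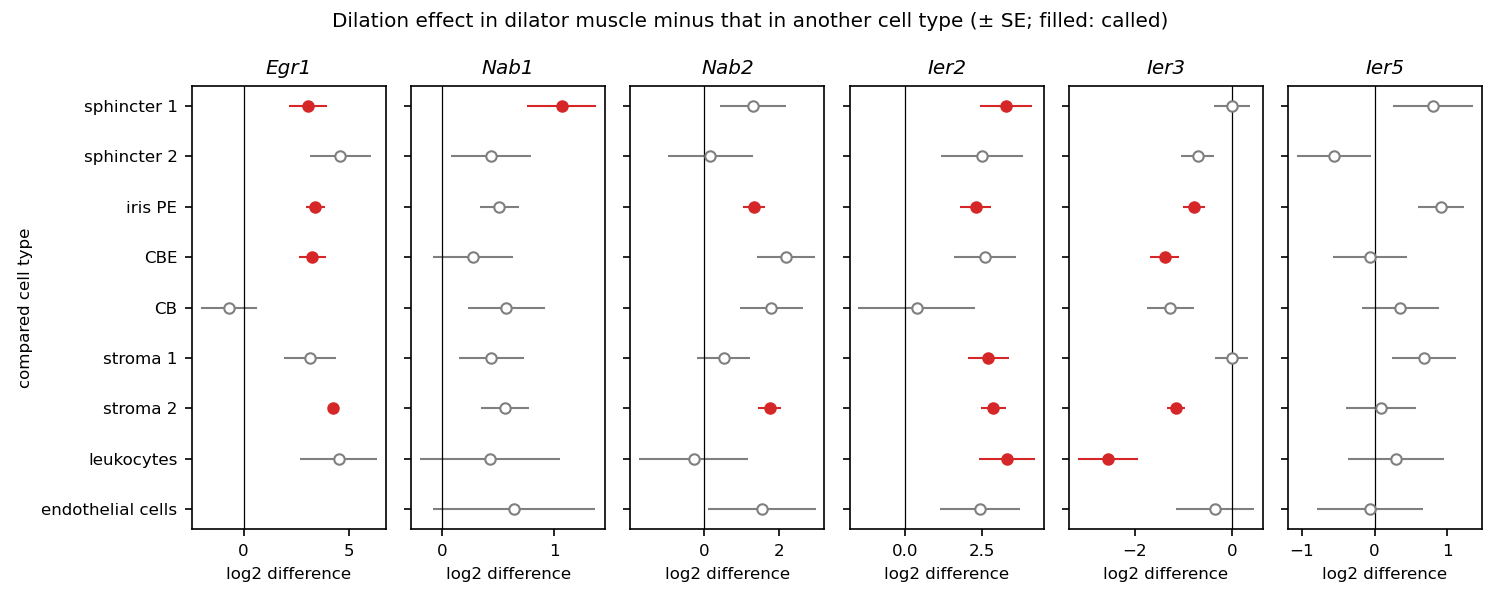
Difference of the dilation effect (log2, dilator muscle minus the other cell type, ± SE) for the 6 genes that could be tested against each of 9 other cell types, with filled points where it was called, 6 of them for cell types where the gene was too rare to be tested by itself. Egr1 and Ier2 lie mostly to the side of a larger effect in dilator muscle and Ier3 to the other side, and the value of Egr1 for endothelial cells (SE 4.35) is not drawn.

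Detection of Egr1 together with another member in the same nucleus was counted in dilated dilator muscle. After thinning to 1000 UMIs, Ier2 was found in 3.43% of 175 nuclei with Egr1 and 0.962% of 2390 without it in dilated replicate 1, and in 7.69% of 286 and 4.32% of 1019 in dilated replicate 2. The same ratio was 0.956 and 0.95 for Nab1, and it lay on opposite sides of 1 for Nab2 in the 2 libraries. For Ier3, which was not called in dilator muscle, it was 1.61 and 1.30, and for Ier5 it was 1.19 and 1.26. The counts of nuclei with both transcripts were small (6 and 22 for Ier2), and these are descriptions without a test.

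The other genes of the pathway were read from lists that were written with earlier results of these data known, and they were counted by the same calls. Of 27 other immediate early genes tested in dilator muscle, 22 rose with dilation and none fell, where 7.2% of all genes were called higher and 6.14% lower, with a median log2 fold change of 2.67 against 0.015 for all genes. Among them Btg2, an antiproliferative gene, rose by 5.50 ± 0.67 on the log2 scale, and Fos, a subunit of AP-1, by 5.47 ± 0.96. Nr4a3, an orphan nuclear receptor, rose by 5.38 ± 1.06 and Plk3, a polo-like kinase, by 5.04 ± 0.78. Of 8 genes for feedback inhibitors of the ERK pathway tested, 6 rose and none fell (median 3.0), led by the ERK phosphatase genes Dusp5 (5.05 ± 1.00) and Dusp6 (3.60 ± 0.74) and the Sprouty-related Spred2 (3.86 ± 0.33) and Spred3 (3.18 ± 0.57). Mean untreated levels were 1.08 CPM for Nr4a3, 0.313 for Plk3, 0.208 for Dusp5, 0.349 for Dusp6 and 0.694 for Spred3. Such levels are too low to pass the filter on low counts through untreated libraries, and the counts of 22 and 6 include these genes. The 16 genes that carry the signal from ERK to serum response factor and CREB had a median of 0.11. Of these, 2 rose, the kinase gene Rps6ka3 (1.09 ± 0.17) and Srf itself (1.03 ± 0.26), and 1 fell, the kinase gene Rps6ka5 (-0.83 ± 0.15).

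Of 19 genes known from other tissues as EGR1 targets, 5 rose and 2 fell in dilator muscle, against 7.2% called higher and 6.14% called lower among all genes, with a median of 0.09. Among the rises were those of Thbs1, thrombospondin 1 (5.80 ± 0.54), F3, tissue factor (3.1 ± 0.32), and Tgfb1 (1.41 ± 0.20). In stroma 2, 4 of 17 such genes rose and 0 fell, against 1.35% of all genes called higher, and Thbs1 was among them (4.55 ± 0.33). Whether EGR1 acts on these genes in the iris was not tested. Of the 10 subunits of NuRD, the partner complex of the NAB proteins, 1 rose (Mbd3, 1.04 ± 0.24), a share near that of all genes. In dilator muscle no gene of these 5 lists was called in constricted against untreated libraries.

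**Figure D5:**
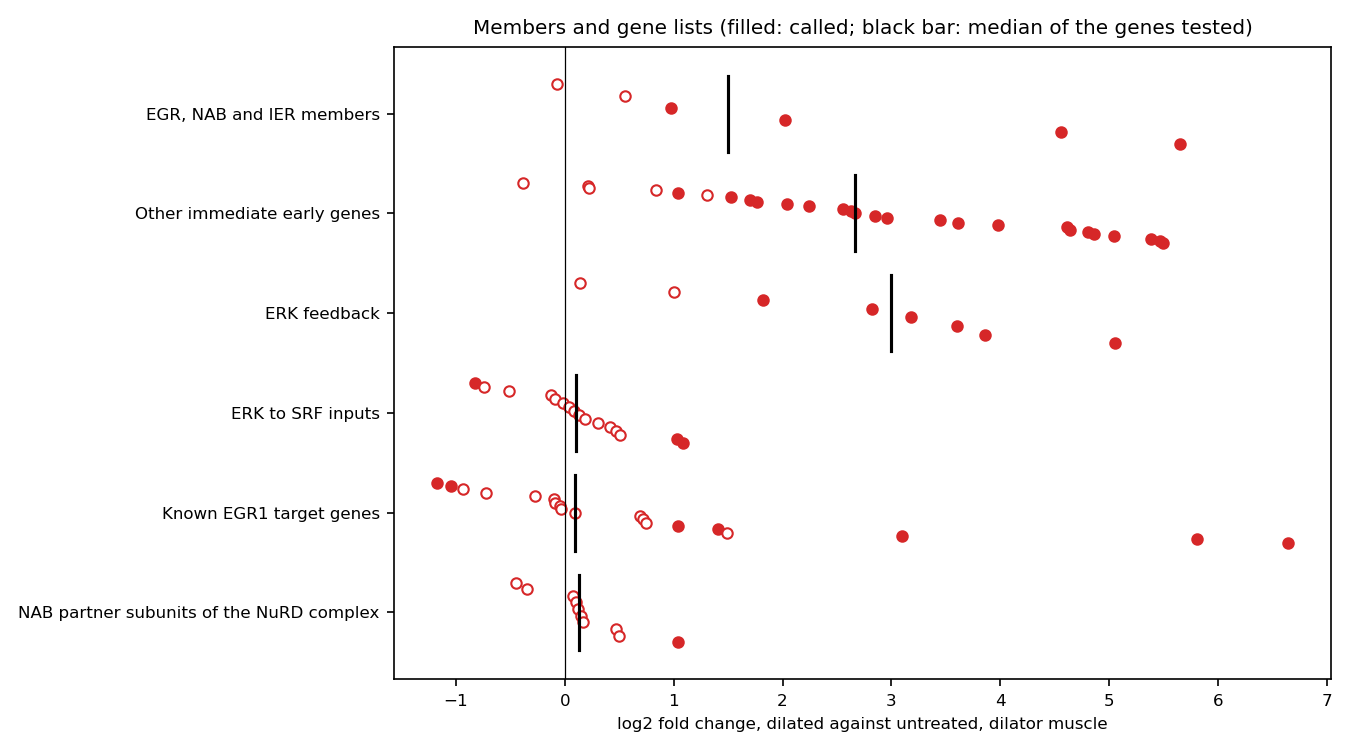
Log2 fold change of dilated against untreated libraries in dilator muscle for each gene tested of the EGR and IER genes and of the 5 lists, filled where called, with a black bar at the median. The other immediate early genes and the ERK feedback genes lie mostly above 0, with medians of 2.67 and 3.0, while the lists of ERK inputs, EGR1 targets and NuRD subunits centre near 0.

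In iris PE, 6 of 22 other immediate early genes rose and none fell, where 0.453% of all genes were called higher. The 4 largest were Btg2 (2.76 ± 0.31), Jun (2.71 ± 0.35), Fos (2.36 ± 0.37) and Junb (1.67 ± 0.28). In CB 2 of 9 rose, Junb (2.67 ± 0.30) and Jun (1.92 ± 0.32), against 0.0665% of all genes, and in stroma 2 it was 4 of 22, led by Nr4a1 (4.04 ± 0.53), against 1.35%. In sphincter 1 it was 3 of 8, led by Junb (2.33 ± 0.39), and in sphincter 2 3 of 10, led by Nr4a2 (3.69 ± 0.70). It was 2 of 10 in stroma 1, led by Jun (2.13 ± 0.35), and 0 of 9 in CBE. Over these 4 cell types and stroma 2 together, 1.5% of all pairs of gene and cell type were called in either direction. Mean untreated levels were 17.3 CPM for Junb in sphincter 1, and 22.2 CPM for Junb and 3.36 CPM for Nr4a2 in sphincter 2. Such levels are too low in these small cell types to pass the filter on low counts through untreated libraries, and the sphincter counts include these genes.

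Genes whose level followed each member most closely were found by the Pearson correlation of log2(CPM + 10) over 30 points, the means of 10 cell types in 3 conditions, among 16973 genes with at least 100 UMIs. The points of a condition share their libraries and small cell types are noisy, so the values are descriptions. Egr2 and Egr3, with 51 and 28 UMIs in all, fall short of 100 UMIs themselves, and their values below rest on few UMIs. Egr1 was followed most closely by Junb (r 0.80), an AP-1 subunit, then Dbi and Slitrk5, and Egr2 by Timp1 (0.78), Atf3 and Egr1 (0.73). Egr3 was followed by Ptgs2 (0.87), the inducible cyclooxygenase, Gm11816 and Ptgir. The nearest to Ier2 were Rps3 (0.83), Cebpd and Tpt1, and to Ier5 Rela (0.85), a subunit of NF-κB, Sbno2 and Arf6. Nearest to Nab1 were Mrps10 (0.68), Wdfy2 and Ppp6r1, to Nab2 Plcxd3 (0.78), Bgn and Polg2, and to Ier3 Rnf34 (0.80), Pi4k2a and Ddx31. Only Egr1 (Junb) and Egr2 (Atf3 and Egr1) had a neighbour among the members or the other immediate early genes listed. Between members the highest values were 0.73 for Egr1 and Egr2, 0.68 for Egr3 and Nab2 and 0.63 for Ier2 and Ier5, and Nab1 had no value above 0.25 with any other.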

How the data were processed

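The authors prepared nuclei from pooled irises, made 10X Genomics Chromium 3′ v3 libraries, and counted unique molecular identifiers per gene and nucleus with Cell Ranger 3.1.0 against mm10. They filtered and clustered the nuclei with Seurat. The deposited values are whole-number UMI counts without normalization, with a cell type per nucleus and the percent of mitochondrial UMIs per nucleus, as deposited by the authors. No per-sample column was left unassigned (0). The members and all gene lists were chosen with earlier results of these data known.

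Here the counts of all nuclei with the same library and cell type were added up and tested with edgeR 4.0.16 (limma 3.58.1, R 4.3.3; TMM factors, filterByExpr, glmQLFit and glmQLFTest, two-sided), with 8 libraries in 1 fit per cell type. Adjusted p-values are Benjamini-Hochberg values over all genes tested. Libraries came from separate pools as far as the labels say, so p-values measure the spread between these pools. Standard errors were taken as the absolute log2 fold change over the square root of F. The fits were checked on data with known changes. The alternatives were DESeq2 1.42.0, no TMM factors, no filter on low counts, no fold threshold, a block for the replicate number or the library series, each library left out, doublets left out (Scrublet in scanpy 1.11.5, 359 nuclei), and shared barcodes left out, the last chosen after seeing the data. Other steps used Python 3.11.15, numpy 2.4.6, scipy 1.17.1, pandas 2.3.3 and matplotlib 3.10.9. Positions are from GENCODE vM21. The named genes are all members, the 3 genes most like each, and up to 4 called genes of each list with the largest absolute fold change, of which 1 is not reported here. Nemp1, Stat6 and the marker genes fall outside this rule and were named after their values were seen. Levels in different cell types were not tested against each other, as the clusters were made from the same counts.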

Additional observations from a re-analysis of the deposited data

Results flagged for a closer look

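A test of the difference itself gave 16 calls for the effect of dilation in dilator muscle against that in a second cell type. In 6 of them (Egr1 for CBE and sphincter 1, Ier2 for leukocytes, sphincter 1 and stroma 1, and Ier3 for leukocytes) the gene had too few counts to be tested in the second cell type by itself. These 6 are not read as differences between cell types. On the log2 scale, as dilator muscle minus the other cell type, the values of Egr1 were 3.27 for CBE, 3.42 for iris PE, 3.06 for sphincter 1 and 4.27 for stroma 2. For Ier2 the values were 2.28 for iris PE, 3.29 for leukocytes, 3.26 for sphincter 1, 2.69 for stroma 1 and 2.86 for stroma 2. Those of Nab2 were 1.33 for iris PE and 1.75 for stroma 2, and that of Nab1 was 1.06 for sphincter 1. Ier3 had the opposite direction, with -1.38 for CBE, -0.79 for iris PE, -2.55 for leukocytes and -1.15 for stroma 2. With 3 untreated, 3 constricted and 2 dilated libraries, no group had enough samples to look for a single library far from the rest.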

How the results depend on the processing

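The changes of Egr1, Ier2 and Nab2 in dilator muscle kept their direction and call in the 15 alternatives of each comparison, while counts over all cell types moved with the filter and with single libraries. With no filter on low counts, 12 pairs of gene and cell type were called in dilated against untreated libraries instead of 6, and 15 instead of 7 in dilated against constricted libraries, and the cause was not tested. The share of all genes called under this setting is not given, so the added calls are not read as results about the members. With DESeq2 the counts were 5 and 8, where the adjusted p of Egr1 in CB was not given by the tool. With single libraries left out, the counts ranged from 3 to 7 (3 without dilated replicate 2 and 3 without untreated replicate 2), from 4 to 9 (4 without dilated replicate 2) and, for the differences between cell types, from 10 to 19 around 16 (10 without untreated replicate 2 and 10 without untreated replicate 3). Constriction gave 0 calls under every alternative run. Without doublets the calls in dilated against untreated libraries were the same 6.

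The log2 fold change of Ier3 in dilator muscle changed sign. Over untreated libraries (main value -0.07) it was 0.049 with a library series block and 0.10 with a replicate block, and from -0.67 to 0.38 with single libraries left out. Over constricted libraries (main value 0.01) it was -0.079 with a library series block, -0.18 without TMM factors, and from -0.59 to 0.47 with single libraries left out.

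The replicate numbers do not pair the libraries: deviations from the group mean over 7732 genes in dilator muscle correlated between same-numbered untreated and constricted libraries by 0.187, 0.005 and 0.303, and untreated replicate 2 correlated best with constricted replicate 3. With a replicate block 7 pairs were called in dilated against untreated (Egr1 in CB was lost at an adjusted p of 0.0534, and Ier2 and Ier3 in stroma 2 were added), 0 in constricted against untreated and 9 in dilated against constricted libraries. With a library series block, in which constricted replicate 2 stands alone, these counts were 9, 0 and 9. Every pair of libraries of 1 series from different conditions correlated by 0.13 to 0.603. Deviations from a group mean cancel within the group, and those of the dilated libraries are exact opposites, so these correlations are not separate observations. Depth limits what can be said of Egr2 and Egr3 everywhere, and of every member in leukocytes and endothelial cells.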
